A study of Rattus norvegicus with 6 samples.

Results

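The calpain genes Capn1, Capn2, Capn3 and Capns1 were described in rat muscle after delayed nerve repair. They were found as the probe sets annotated with exactly 1 of these symbols, which gave 1 probe set for each of the 4 genes, out of 10411 named genes on the array. Total RNA of the tibialis anterior was measured in 3 male Wistar rats, numbered 4, 5 and 6, on 1 array per muscle. The age given for them is 8 weeks. As survival was also 8 weeks, it is not the age at which the muscles were taken. The ipsilateral muscle (n = 3 libraries) belonged to the leg in which the peroneal nerve was cut and stitched to the biceps femoris, and in which both stumps were joined 4 weeks later. The contralateral muscle (n = 3 libraries) came from the other leg of the same animals. All 6 libraries are of operated animals under ketamine and xylazine, and survival was 8 weeks, with no statement of its starting point. Muscles of unoperated rats and of rats without repair were not analysed here.

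Calpains are cysteine proteases of the cytosol that need calcium to cut, and they cleave proteins at a few sites rather than degrade them. Capn1 and Capn2 encode the large catalytic subunits of the conventional enzymes, which each pair with the small regulatory subunit encoded by Capns1 and are found in nearly every cell type. Capn3 encodes the muscle calpain, which is held on titin in the sarcomere and does not need the small subunit. Loss of CAPN3 in humans causes a limb-girdle muscular dystrophy. Calpastatin, the product of Cast, inhibits the conventional enzymes and not calpain-3.

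The 250 bases before the annotated start of Capn3, Capn2 and Capns1 are shown, the 3 of the 4 genes matched by symbol in the RefSeq promoter table (build GRCr8, each in the direction of its gene). The values of these 3 were also higher in the ipsilateral muscle of all 3 animals, and Capn1 was not matched. Capitals mark 6-base E-boxes (CANNTG, which reads the same on both strands), GC boxes (GGGCGG or, on the other strand, CCGCCC) and the MEF2 consensus, the site of a muscle transcription factor, which was added to the search after the sequences were seen.
Capn3, chr3:127861340-127861589, plus strand: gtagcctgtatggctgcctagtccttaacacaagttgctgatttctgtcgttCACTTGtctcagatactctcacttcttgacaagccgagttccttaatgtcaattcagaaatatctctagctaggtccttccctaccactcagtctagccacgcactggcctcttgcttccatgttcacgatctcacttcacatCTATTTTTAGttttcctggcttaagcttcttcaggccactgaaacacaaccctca
Capn2, chr13:96732626-96732875, minus strand: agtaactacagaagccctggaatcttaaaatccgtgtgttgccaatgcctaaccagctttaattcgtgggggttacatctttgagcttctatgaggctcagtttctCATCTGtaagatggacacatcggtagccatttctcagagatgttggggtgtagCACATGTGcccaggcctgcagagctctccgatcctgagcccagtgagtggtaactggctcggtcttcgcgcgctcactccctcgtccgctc
Capns1, chr1:94582222-94582471, minus strand: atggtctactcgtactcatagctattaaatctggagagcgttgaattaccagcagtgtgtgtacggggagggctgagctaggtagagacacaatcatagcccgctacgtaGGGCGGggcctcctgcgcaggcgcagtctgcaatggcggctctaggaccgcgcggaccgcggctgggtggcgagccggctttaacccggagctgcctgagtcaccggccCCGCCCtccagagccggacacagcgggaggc
The Capn3 window holds 1 E-box and 1 MEF2 match, the Capn2 window 3 E-boxes, of which a pair overlaps, and the Capns1 window 2 GC boxes. Of 33469 promoters in the table, 65.5% hold an E-box in the same 250 bases, 30.5% a GC box and 2.96% a MEF2 match. The G and C content is 45.2% for Capn3, 52.0% for Capn2 and 63.2% for Capns1, against a median of 51.2% over the table. These matches describe the letters and say nothing of binding.

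The comparison set the muscle whose nerve had been cut and rejoined against its counterpart in the other leg. All 4 calpain genes had slightly higher mean intensities ipsilaterally, with fitted folds of 1.07 to 1.13, and 0 of the 4 passed the test. The muscle calpain Capn3 was higher by 1.12-fold, about the same as the ubiquitous Capn1 at 1.12-fold and Capns1 at 1.13-fold. Values are array intensities, arbitrary units on a linear scale, and differences are log2 of ipsilateral over contralateral intensity after adding 15.8 to each, with the standard error (SE) of limma's paired fit. The 4 probe sets all passed the filter on dim probe sets, at a mean log2 value above 5.86. Intensities of different probe sets are not set against each other, since a probe set's brightness depends on its probes, so levels are described within each gene only.

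Capn3 had intensities of 293, 283 and 268 in the ipsilateral muscles of animals 4, 5 and 6, against 243, 276 and 229.0 in the contralateral muscles. The ipsilateral value was the higher in each animal, but the groups overlapped, because the contralateral muscle of animal 5 lay above the ipsilateral muscle of animal 6. The means were 282 ± 12.5 ipsilaterally and 249 ± 24.1 contralaterally (SD, n = 3 each). On the log2 scale animals 4, 5 and 6 differed by 0.26, 0.04 and 0.21, a fitted difference of 0.17 (SE 0.15, n = 3 pairs). The adjusted p was 0.861 in limma's paired fit with Benjamini-Hochberg adjustment over 9519 probe sets. The 95% interval ran from 0.890-fold to 1.42-fold, a span that holds both a small fall and a moderate rise. The probe set carries the array's mark (suffix _a_at) for probes that match several transcripts of 1 gene, so the full-length muscle form and the shorter forms known from rat lens were not told apart.

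Capn1, the large subunit of mu-calpain, had intensities of 223, 204 and 234.0 in the ipsilateral muscles of animals 4, 5 and 6, against 148, 234 and 211 in the contralateral muscles. It was the 1 gene of the 4 without a common direction, lower ipsilaterally in animal 5 and higher in the others. The contralateral library of animal 4 stood below the other 5, which lay between 204 and 234. The means were 220.5 ± 15.0 ipsilaterally and 198 ± 44.7 contralaterally (SD, n = 3 each), with a log2 difference of 0.17 (SE 0.18, adjusted p = 0.892 in limma's paired fit). Animal 4 gave 0.55, animal 5 gave -0.18 and animal 6 gave 0.14, and without animal 4 the fitted difference was -0.02. In the contralateral library of animal 4, 17.2% of all tested probe sets had their lowest value, about the 1 in 6 that like libraries would give. An RNA quality measure, actin signal near the 3' end over that of the middle, was 2.77 in this library. It was 2.87 in the ipsilateral library of animal 6 and 1.36 to 1.68 in the other 4. The same ratio for Gapdh did not set these 2 libraries apart. The Gapdh ratio ran from 1.02 to 1.21 over the 6 libraries, with both extremes in animal 5. Without pairing and without the 2 libraries of high actin ratio, a setting added after the values were seen, Capn1 differed by -0.055.

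Capn2, the large subunit of m-calpain, had intensities of 355, 480.4 and 424 in the ipsilateral muscles of animals 4, 5 and 6, against 348, 418 and 398 in the contralateral muscles. Each ipsilateral value was above that of the same animal, and the spread between animals was wider than the difference within them, so the groups overlapped. The means were 419.6 ± 62.9 ipsilaterally and 388 ± 36.5 contralaterally (SD, n = 3 each). The log2 difference was 0.10 (SE 0.15, adjusted p = 0.923 in limma's paired fit), and 0.03, 0.19 and 0.09 in animals 4, 5 and 6. This was the smallest difference of the 4 genes, and 59.2% of all tested probe sets had a larger one in either direction. Its 95% interval was 0.853-fold to 1.35-fold.

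Capns1, the small subunit shared by both conventional calpains, had intensities of 820.1, 976 and 904 in the ipsilateral muscles of animals 4, 5 and 6, against 751, 816 and 819 in the contralateral muscles. It was the 1 gene of the 4 whose groups did not overlap, although the lowest ipsilateral value, 820.1, exceeded the highest contralateral value, 819.1, by very little. Of all 9519 tested probe sets, 4.74% had each ipsilateral library above each contralateral one and 5.78% had each below. The means were 900.1 ± 78.0 ipsilaterally and 795 ± 38.5 contralaterally (SD, n = 3 each). The log2 difference was 0.17 (SE 0.14, adjusted p = 0.847 in limma's paired fit), with 0.13, 0.25 and 0.14 in animals 4, 5 and 6, and a 95% interval of 0.907-fold to 1.40-fold. These 3 values had an SD of 0.07, against a median SD of 0.25 over all tested probe sets.

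**Figure D1:**
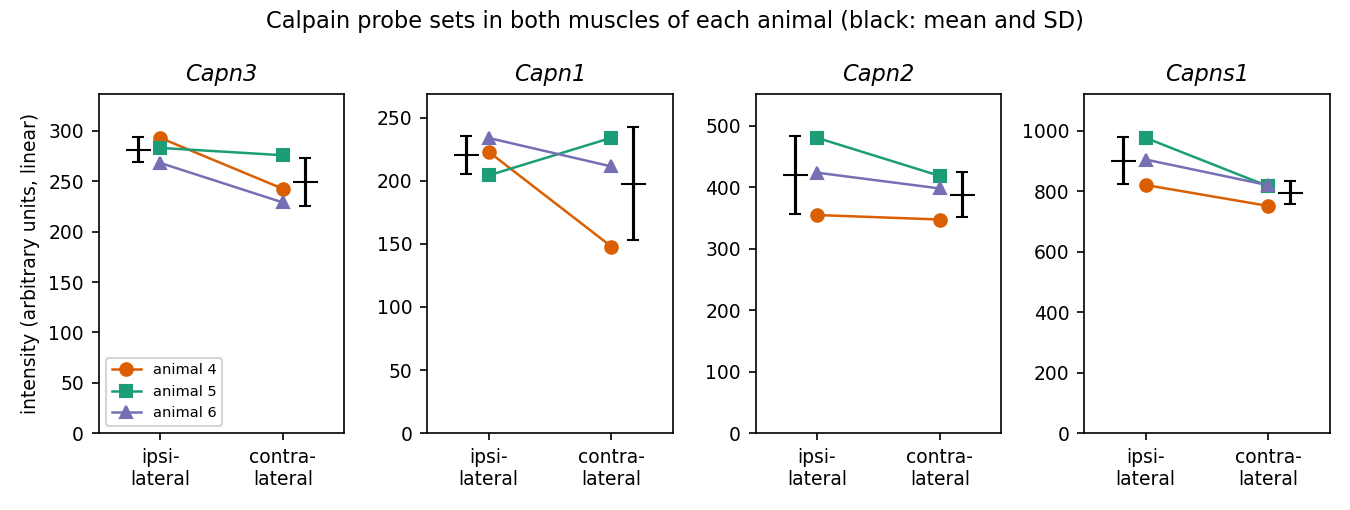
Intensity (linear, arbitrary units, axes from 0) of the 4 calpain probe sets in the ipsilateral and contralateral muscle of animals 4, 5 and 6, with lines joining the muscles of 1 animal and black bars for mean and SD (n = 3). Lines fall to the right in all 3 animals for Capn3, Capn2 and Capns1, while Capn1 is higher contralaterally in animal 5 and has its lowest value, 148, in the contralateral muscle of animal 4.

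Ipsilateral values exceeded contralateral ones in every animal for 3 of the 4 calpain genes, and 0 showed the opposite. Among all 9519 tested probe sets 12.3% were higher and 15.1% lower in all 3 animals. In limma's paired fit 0 of the 4 passed at an adjusted p under 0.05, and 0 had an unadjusted p under 0.05, the lowest being 0.246. The background was 0% of all tested probe sets for the adjusted and 6.36% for the unadjusted threshold. The median difference of the 4 genes was 0.17 on the log2 scale, against -0.02 over all tested probe sets. Within animals 4, 5 and 6 the median of the 4 was 0.19, 0.11 and 0.14. Differences of this size were common: 37.4% of all tested probe sets had a larger absolute difference than Capns1 and 38.3% than Capn3, and the median absolute difference was 0.13. Whole muscle was measured, so a change in the number of cells of a type and in the RNA per cell cannot be told apart.

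**Figure D2:**
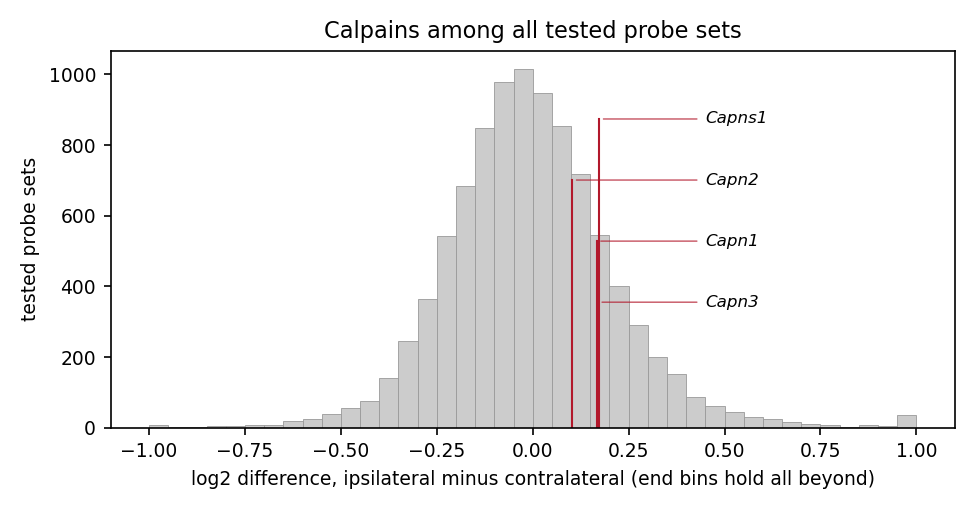
Number of tested probe sets by log2 difference, ipsilateral minus contralateral, in bins whose end bins hold everything beyond, with red lines at the 4 calpain genes. Capn3, Capn1 and Capns1 lie together at 0.17 and Capn2 at 0.10, within the bulk of the 9519 probe sets.

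The muscle calpain was then set against each ubiquitous calpain gene by subtracting their differences within each animal. Capn3 minus Capn1 was -0.29, 0.22 and 0.08 in animals 4, 5 and 6, a mean of 0.0032 ± 0.26 (SD, n = 3 animals). Capn3 minus Capn2 was 0.23, -0.16 and 0.13 in the same order, a mean of 0.07 ± 0.20 (SD, n = 3). Capn3 minus Capns1 was 0.13, -0.22 and 0.07, a mean of -0.0036 ± 0.19 (SD, n = 3). Each of the 3 comparisons had animals of both signs. The exact two-sided permutation p by sign flips was 1.0 against Capn1, 0.75 against Capn2 and 1.0 against Capns1, and 1 for each after adjustment over the 3 comparisons. With 3 animals the smallest p this test allows is 0.25, so it could not have passed. The values do not show that the genes act alike, only that unequal change was not detectable within a spread of about 0.2 to 0.3 on the log2 scale.

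Over the 6 libraries, the log2 values of Capn2 and Capns1, the subunits of m-calpain, had the highest Pearson correlation among the 6 pairs of members, 0.88. The other pairs lay between 0.27, for Capn3 with Capn2, and 0.49, for Capn1 with Capns1. Both Capn2 and Capns1 were lowest in the contralateral muscle of animal 4 and highest in the ipsilateral muscle of animal 5. The 6 libraries come from 3 animals and share array scaling, so these correlations are descriptions. In 8104 other tested probe sets with 1 symbol, the closest to Capn3 were those of Mif4gd (0.99), Itpka, an inositol trisphosphate kinase (0.98), and Hnrnpa1, an RNA-binding protein (0.97). Mif4gd had intensities of 333, 332 and 303 ipsilaterally in animals 4, 5 and 6, against 269, 307 and 248 contralaterally, the same order of libraries as Capn3. Closest to Capn1 were Cdk14, a cyclin-dependent kinase (0.999), Ly6l (0.99) and Apaf1, the scaffold of the apoptosome (0.98). Like Capn1, each had its lowest value in the contralateral library of animal 4, which largely follows from their choice by correlation. Closest to Capn2 were the basement membrane collagen Col4a2, the capillary protein Gpihbp1 and Cfap97 (0.99 each). Closest to Capns1 were the nucleolar GTPase Gnl3l (0.99), the glutathione transferase Mgst3 (0.99) and the retinaldehyde dehydrogenase Aldh1a1 (0.99). With 6 libraries such values are common: 36 probe sets correlated above 0.9 with Capn3, 68 with Capn1, 96 with Capn2 and 104 with Capns1.

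Other calpains and the inhibitor calpastatin made a list of 13 genes, of which 9 had a probe set and 5 a tested one. In limma's paired fit 0 of their 6 tested probe sets passed, with a lowest adjusted p of 0.809, against 0% of all tested probe sets. An unadjusted p under 0.05 was found for 0 of the 6, against 6.36% of all tested probe sets. Calpastatin is the natural inhibitor of the enzymes made by Capn1 and Capn2. Its brightest probe set had intensities of 160.4, 156 and 184 ipsilaterally in animals 4, 5 and 6, against 128, 162 and 183 contralaterally, a log2 difference of 0.08 (SE 0.15). The values were nearly equal in animals 5 and 6, and higher ipsilaterally in animal 4. A dimmer tested probe set of Cast gave -0.02 (SE 0.17), and the third was too dim to be tested, at 43.5, 25.2 and 32.3 ipsilaterally against 29.4, 38.0 and 46.0 contralaterally.

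Capn10, an atypical calpain linked to diabetes risk in humans, was higher in all 3 animals, with 71.2, 62.0 and 71.6 ipsilaterally against 64.5, 55.4 and 60.6 contralaterally, a log2 difference of 0.15 (SE 0.16). Capn7, an atypical calpain, had 248, 287 and 346 ipsilaterally against 347, 269 and 241 contralaterally, a difference of 0.04 (SE 0.19) that ran from -0.46 in animal 4 to 0.50 in animal 6. Capn13 had 65.4, 83.9 and 47.3 ipsilaterally against 67.2, 85.0 and 56.3 contralaterally (-0.08, SE 0.16). Those groups overlapped in all 3 genes. Capn8, known as a stomach calpain, had 49.6, 72.9 and 58.0 ipsilaterally against 72.6, 73.0 and 80.4 contralaterally. Its difference of -0.27 (SE 0.17) was the largest among the tested probe sets of this list and was below 0 in all 3 animals, but only by -0.0016 in animal 5. Its other probe set was too dim to be tested. Capn5, Capn6, Capn9 and Capn15 were also too dim, with intensities between 6.7 and 49.8 over these and the dim probe sets of Cast and Capn8, and in 0 of the 6 dim probe sets did the groups stand apart.

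**Figure D3:**
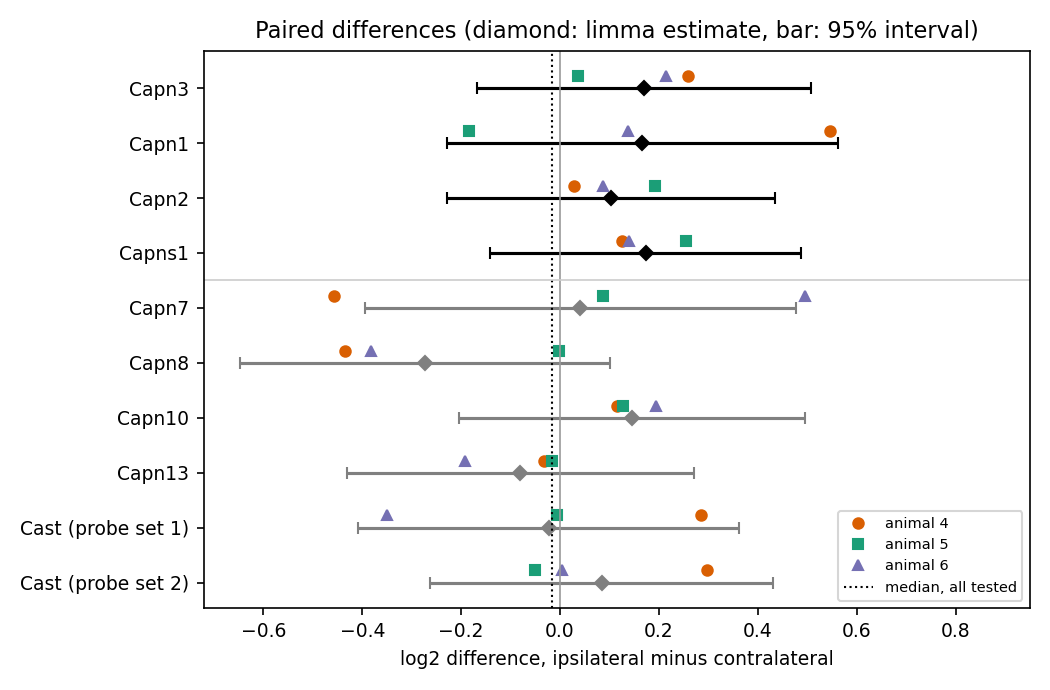
Log2 differences, ipsilateral minus contralateral, of the 4 calpain genes (black) and of the 6 tested probe sets of other calpains and calpastatin (grey), with diamonds for limma's estimate, bars for its 95% interval, coloured points for animals 4, 5 and 6 and a dotted line at the median of all tested probe sets. Each bar crosses 0, and Capn1 and Capn7 show the widest scatter between animals.

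Known substrates of the conventional calpains in the sarcomere, cytoskeleton and focal adhesions were also read. Of 17 such genes, all tested, 0 passed in limma's paired fit and 1 had an unadjusted p under 0.05, against 6.36% of all tested probe sets. A total of 3 were higher and 0 lower in all 3 animals, where 12.3% and 15.1% of all tested probe sets did so. The median difference was 0.05, against -0.02 over all tested probe sets, and leaving out animals 4, 5 and 6 in turn gave 0.13, 0.022 and -0.0015. Ttn, the giant spring protein that anchors calpain-3, had intensities of 3098, 4169 and 4626 ipsilaterally in animals 4, 5 and 6, against 2755, 3526 and 2942 contralaterally. It was higher in all 3 animals, by 0.35 (SE 0.13, adjusted p = 0.730 in limma's paired fit), though the groups overlapped. Ryr1, the calcium release channel of the sarcoplasmic reticulum, had 1306, 1339 and 1583 ipsilaterally against 1133, 1129 and 1306 contralaterally. Its difference of 0.24 (SE 0.13) was nearly the same in each animal, 0.20, 0.24 and 0.27. Neb, the thin filament ruler nebulin, differed by 0.30 (SE 0.15), with -0.03 in animal 4, and Tnni2, the fast troponin I, by -0.26 (SE 0.12), with 0.04 in animal 6.

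Proteins that bind calpain-3 or lie in its titin and triad complexes made a list of 9 genes, 3 of them, Ttn, Ryr1 and Flnc, also among the substrates, and 6 were tested. In limma's paired fit 0 passed and 2 had an unadjusted p under 0.05, against 6.36% of all tested probe sets. In all 3 animals 3 of the 6 were higher and 1 was lower, against 12.3% and 15.1% of all tested probe sets. The list median was 0.28, or 0.17 without animal 5. Ankrd1, the stretch-responsive ankyrin repeat protein that binds titin beside calpain-3, had 331, 1057 and 714 ipsilaterally in animals 4, 5 and 6, against 192, 71.1 and 195 contralaterally. Its groups did not overlap and its difference was 2.05 (SE 0.41, adjusted p = 0.333), while Capn3 differed by 0.17 in the same muscles. Without animal 4, Ankrd1 was the 1 gene of this list that passed, in a fit with 1 residual degree of freedom in which 241 of all 9519 probe sets did. Flnc, filamin C, differed by 0.32 (SE 0.18), with -0.11 in animal 4.

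Genes of sarcolemma repair and limb-girdle dystrophies made a list of 18, of which 12 were tested. In limma's paired fit 0 passed and 0 had an unadjusted p under 0.05, against 6.36% of all tested probe sets. In all 3 animals 1 was higher and 2 were lower, against 12.3% and 15.1% of all tested probe sets. The median was -0.02, and its sign depended on the animals, since leaving out 4, 5 and 6 in turn gave 0.13, 0.032 and -0.13. Those with the smallest p were Tcap, the titin cap (-0.17, SE 0.12), Trim32, a ubiquitin ligase (-0.21, SE 0.15), Cav3, muscle caveolin (0.19, SE 0.15), and Anxa5, an annexin (-0.20, SE 0.16). Their adjusted p was 0.847 each. The Anxa5 value came largely from animal 4, at -0.57, against -0.01 and -0.03 in animals 5 and 6.

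Markers of fibre types and of other cells were read beside these values, and in limma's paired fit 0 genes of any of these lists passed. An unadjusted p under 0.05 was found for 7 slow fibre, 4 fibroblast, 3 adipocyte, 1 endothelial and 1 Schwann cell markers that were higher, and for 3 fast fibre, 3 macrophage and 1 Schwann cell markers that were lower. Of all tested probe sets, 6.36% had an unadjusted p under 0.05, in either direction. The background to the counts of same-signed genes is the 12.3% that were higher and the 15.1% that were lower in all 3 animals. Slow fibre markers had a median difference of 1.02 over 8 tested genes, 6 of which were higher in all 3 animals, and their summed intensity was 15154 to 30041 ipsilaterally against 10212 to 13044 contralaterally. Fast fibre markers had a median of -0.26 over 9 tested genes, 4 of which were lower in all 3 animals, and sums of 39695 to 45735 ipsilaterally against 50693 to 56247 contralaterally. The slow median was 0.27, 1.72 and 1.09 in animals 4, 5 and 6, whereas Capn3 differed by 0.26, 0.04 and 0.21, with its smallest value where the slow markers had their largest. In animal 5, where the slow median was the largest, Capn2 and Capns1 had their largest differences and Capn1, also ubiquitous, its lowest, -0.18. With 3 animals these orders are descriptions only. Macrophage and immune markers had a median of -0.29 over 7 tested genes, 4 of them lower in all 3 animals. Their median was -0.00036, -0.35 and -0.34 in animals 4, 5 and 6. They summed to 2762 to 3818 ipsilaterally against 3936 to 4203 contralaterally. Fibroblast and tendon markers had a median of 0.27 over 9 tested genes, 5 higher and 1 lower in all 3 animals, with sums of 12026 to 13586 ipsilaterally against 11555 to 12788 contralaterally. Endothelial markers summed to 648 to 840 ipsilaterally against 601 to 636 contralaterally (median 0.18, 1 of 5 tested genes higher in all 3 animals), adipocyte markers to 1551 to 2463 against 1087 to 1699 (median 0.52, 3 of 3), and Schwann cell markers to 1032 to 1115 against 874 to 922 (median 0.16, 2 of 4 higher and 1 lower). None of the markers with a probe set was at 0 in all libraries. The part of cell makeup in the calpain values was not tested.

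**Figure D4:**
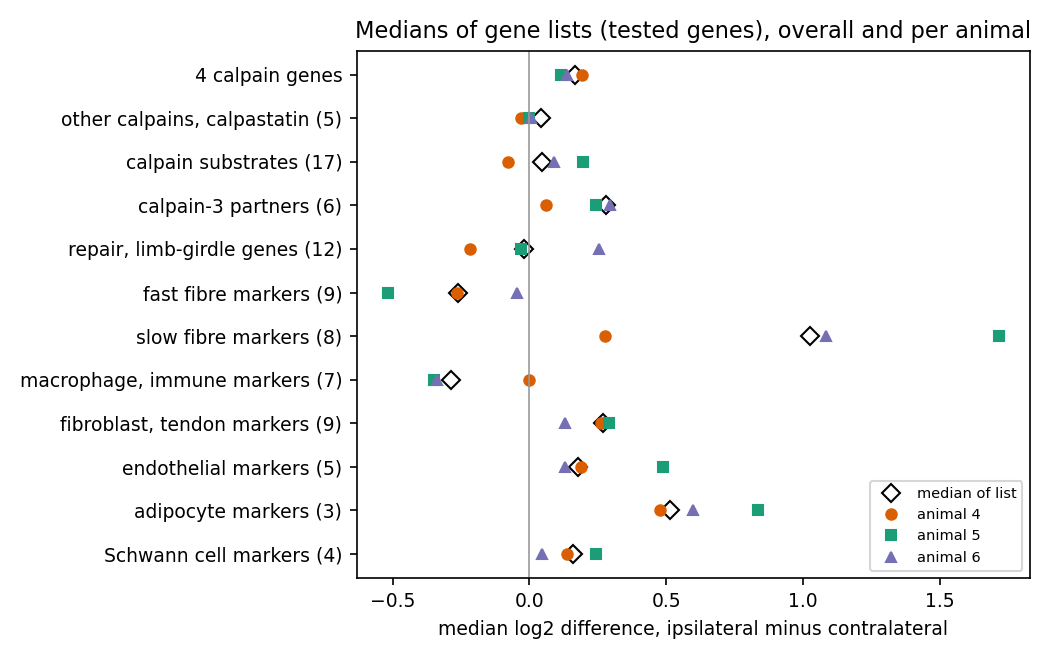
Median log2 difference, ipsilateral minus contralateral, of the 4 calpain genes and of each gene list (number of tested genes in brackets), with open diamonds for the median of the fitted differences and coloured points for the median within animals 4, 5 and 6. The median of the 4 calpain genes lies between 0.11 and 0.19 in each animal, while that of the slow fibre markers reaches 1.72 in animal 5.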

How the data were processed

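Total RNA of 6 muscles was hybridised to 1 rat expression array each. The authors deposited 1 linear intensity per probe set and array, judged from the values, and 9 of these are 0. Without the lowest and highest 2% each array averaged near 150. The software was not given in the sources used here. The number of arrays limits the precision. Samples were grouped by title, where Cont was read as contralateral, and paired by the animal number in the title, as 1 animal gave both muscles. Across probe sets, deviations from group means correlated at -0.04, 0.07 and 0.13 between the muscles of animals 4, 5 and 6.

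The arrays hold 15923 probe sets, of which 57 controls were not tested. By the platform's annotation, possibly outdated, 12789 have 1 symbol, 312 have several and 2822 have none here. A GRCr8 gene table matched 12756 of those with 1 symbol. Values were taken as log2(intensity + 15.8), the 20th percentile, without further normalization, and 9519 probe sets with a mean above the 40th percentile were tested with limma 3.58.1 in R 4.3.3 (lmFit, eBayes with trend, animal as a block, Benjamini-Hochberg adjustment). The fit had 2 residual and 7.47 prior degrees of freedom. Its test on simulated data used planted changes far larger than the calpain differences, so it says nothing of power for differences that small. Lists were read by counts and medians of the brightest tested probe set per gene. The members and lists were chosen with earlier results of these data known. Named genes were the members, the calpain family, up to 4 genes per list with the smallest p and the 3 probe sets most like each member. Alternatives covered normalization, pseudocount, filter, variance prior, the block and each animal left out; 1 more, without the libraries with the highest actin ratio, was chosen after seeing the data.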

Additional observations from a re-analysis of the deposited data

How the results depend on the processing

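The 4 calpain genes had an adjusted p above 0.05 under all 12 alternatives, with a lowest value of 0.567 in limma, for Capns1 without animal 4. Of 48 fitted differences of these genes, 46 kept their sign. Changing only the filter, the variance prior or the block cannot alter a difference fitted to complete pairs, so those signs were bound to stay. Capn1 ran from -0.023 without animal 4 to 0.34 without animal 5, and was -0.055 without pairing and without contralateral 4 and ipsilateral 6 (an alternative picked once the data had been seen). Without the replicate block, Capn3 necessarily had the same difference of 0.17, with an adjusted p of 0.879 in limma. In that fit, as in the main one, 0 of all tested probe sets passed. Leaving out each animal moved Capn3 between 0.13 and 0.24, Capn2 between 0.06 and 0.14 and Capns1 between 0.13 and 0.20.

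The small differences between genes had no stable sign. Capn3 minus Capn1 was -0.00032 with the pseudocount at the 5th percentile and ran from -0.10 to 0.15 with each animal left out, and without animals 5 and 6 in turn it was -0.10 and -0.03. Capn3 minus Capn2 ran from -0.015 without animal 4 to 0.18. Capn3 minus Capns1 was 0.0021 with the pseudocount at the 5th percentile and ran from -0.072 to 0.10, the last without animal 5. Each gene has 1 probe set, so averaging probe sets changed nothing.

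Over all tested probe sets, 0 passed with all animals and with animal 5 or 6 left out, but 241 without animal 4, in a fit with 1 residual degree of freedom, and 1 without pairing and without contralateral 4 and ipsilateral 6. The calpain-3 partner list had 1 call, Ankrd1, without animal 4 and 0 with the others left out, and its median was 0.14 without pairing and those libraries. The median of the other calpains was 0.04 with all animals, -0.080 without the filter, 0.063 with the filter at the 60th percentile, 0.063 without pairing and those libraries, and -0.024 to 0.019 with each animal left out. With each animal left out, the median of the substrates ran from -0.0015 to 0.13 and that of the repair and limb-girdle genes from -0.13 to 0.13. The cause was not tested.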
